A study of Mus musculus with 69 samples.

Results

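The genes described here are 7 water channels (aquaporins), Aqp1, Aqp2, Aqp3, Aqp4, Aqp6, Aqp7 and Aqp11, and 2 vasopressin receptors, Avpr2 and Avpr1a. They were taken by symbol from the 4 deposited expression tables, and each of the 9 symbols matched 1 row in every table. Their identifiers in the tables are ENSMUSG00000004655, ENSMUSG00000023013, ENSMUSG00000028435, ENSMUSG00000024411, ENSMUSG00000043144, ENSMUSG00000028427, ENSMUSG00000042797 for the channels in that order, and ENSMUSG00000031390 and ENSMUSG00000020123 for Avpr2 and Avpr1a. The tables have 52404 genes in common. In the collecting duct 8 of the 9 genes had enough signal to be tested, and in the proximal tubule 4 of the 9.

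Aquaporins are membrane channels for water, and Aqp3 and Aqp7 also pass glycerol. In the principal cell of the collecting duct, vasopressin binds the V2 receptor, the product of Avpr2, and cAMP made by adenylyl cyclase then drives Aqp2 vesicles into the apical membrane and, over hours to days, raises transcription of Aqp2. Water leaves the cell through Aqp3 and Aqp4 in the basolateral membrane, while in the proximal tubule Aqp1 carries much of the water that is reabsorbed with salt, independently of vasopressin. Inherited loss of AVPR2 or AQP2 function causes nephrogenic diabetes insipidus, in which urine cannot be concentrated.

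The samples were single tubule segments dissected from kidneys of male wild-type C57BL/6 mice, 7 weeks old and supplied by Taconic. Mice had undergone unilateral nephrectomy (UNx, in which a kidney is excised) or a sham operation 24 h or 72 h earlier. PT-S1 is the first part of the proximal tubule. CCD is the cortical collecting duct, in which principal cells, which carry sodium and water, alternate with intercalated cells, which carry acid and base. PolyA RNA was copied with a low-input SMART-Seq kit, and 69 libraries were deposited, several of them from the same animal. In PT-S1 there were 8 libraries from 3 sham animals and 9 from 4 UNx animals at 24 h, and 12 from 5 sham and 12 from 5 UNx animals at 72 h. In CCD there were 8 libraries from 4 sham and 7 from 3 UNx animals at 24 h, and 7 from 4 sham and 6 from 4 UNx animals at 72 h. The animal was taken as the replicate throughout. The labels do not say whether PT-S1 and CCD libraries with the same animal number came from 1 mouse.

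Values are TPM, a transcript abundance that divides reads by gene length, so that levels of different genes in a library can be set side by side. Every library sums to the same total, so its depth is unknown and no counting error could be given. The 4 tables were processed separately, so levels are given side by side across tables and not tested as such.

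The upstream sequences of the channel and receptor genes with the highest CCD levels are shown first, because the cAMP response of Aqp2 is known to run through its promoter. Each is the stretch of 250 bases before the annotated gene start in RefSeq, 5′ to 3′ on the gene's strand, with coordinates on GRCm38.p6, a build other than the one the tables were made with. Aqp2 lies at chr15:99578806-99579055 on the plus strand, Aqp3 at chr4:41098184-41098433 on the minus strand and Avpr2 at chrX:73891852-73892101 on the plus strand. Capitals mark the matches to the motifs named below.
Aqp2: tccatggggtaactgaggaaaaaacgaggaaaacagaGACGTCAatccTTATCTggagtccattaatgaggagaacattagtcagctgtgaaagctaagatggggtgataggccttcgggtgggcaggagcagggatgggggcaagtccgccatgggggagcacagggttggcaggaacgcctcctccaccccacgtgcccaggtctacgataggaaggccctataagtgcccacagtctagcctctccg
Aqp3: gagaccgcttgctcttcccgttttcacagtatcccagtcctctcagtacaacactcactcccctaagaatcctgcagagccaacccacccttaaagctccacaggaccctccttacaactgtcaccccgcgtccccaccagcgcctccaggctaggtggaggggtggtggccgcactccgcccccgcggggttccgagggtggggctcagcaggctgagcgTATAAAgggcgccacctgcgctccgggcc
Avpr2: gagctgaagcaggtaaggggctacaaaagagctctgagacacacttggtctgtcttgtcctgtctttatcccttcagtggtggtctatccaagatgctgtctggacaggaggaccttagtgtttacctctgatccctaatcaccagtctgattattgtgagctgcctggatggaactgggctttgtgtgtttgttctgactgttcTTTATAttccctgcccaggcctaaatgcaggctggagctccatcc

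The motifs were searched on both strands of the same 250 bases in 32851 promoters, and 8 of the 9 genes had an entry. The full cAMP response element, TGACGTCA, was found in 1.55% of promoters and in none of the 8 genes. Its core GACGTCA, which overlaps it, was found in 2.78% of promoters and, among the 8 genes, in Aqp2 alone, starting 213 bases before the end of the window. The GATA motif AGATAA was found in 9.99% of promoters and in Aqp2, where it reads TTATCT and starts at 202 bases, and in Aqp7. The TATA motif TATAAA was found in 12.4% of promoters and in Aqp3, 29 bases before the end, in Avpr1a, and in Avpr2, where it reads TTTATA and starts at 45 bases. These are letter matches and not measured sites, since no binding or methylation data were used. In RefSeq's gene order Aqp2, Aqp5 and Aqp6 are consecutive protein-coding genes on chromosome 15, and Aqp7 and Aqp3 are neighbours on chromosome 4. Aqp1 is on chromosome 6, Aqp11 on 7, Avpr1a on 10 and Avpr2 on X.

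The marker lists of the labelled segments had the largest sums, beside some signal of other segments. In CCD the 12 principal cell markers other than the aquaporins, such as the sodium channel subunits Scnn1a, Scnn1b and Scnn1g, summed to between 12178 and 16109 TPM per animal, and the 14 intercalated cell markers to between 8095 and 11971 TPM. In PT-S1 the 12 markers of proximal S1 and S2 summed to between 10346 and 20137 TPM, and the principal cell list to between 58.6 and 142 TPM. The 9 markers of proximal S3 summed there to between 590 and 3450 TPM. Thick ascending limb markers summed to between 177 and 391 TPM in PT-S1, and to between 30.6 and 97.8 TPM in CCD at 72 h. In CCD at 24 h, distal convoluted and connecting tubule markers summed to 415 to 698 TPM in sham. In UNx they summed to 518 to 615 TPM. At 72 h these sums in CCD were 314 to 660 TPM in sham and 507 to 913 TPM in UNx. Their part in the levels of the members was not tested. Kcne1 of the principal cell list was listed at 0 in both PT-S1 groups at 24 h and in the UNx group at 72 h. A set of 5 libraries stood apart from their table, with a median correlation to the rest under 0.92: 1 each of PT-S1 24 h sham animals 1 and 3, 1 each of PT-S1 72 h UNx animals 1 and 2, and 1 of CCD 72 h sham animal 1. In CCD at 24 h, 1 library of sham animal 1 and 1 of sham animal 2 held thick ascending limb markers at 1639 and 8671 TPM in sum. Results that rest on these libraries are given with and without them. In whole dissected tubules, fewer cells of a type and less RNA per cell cannot be told apart.

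The 9 genes divided by segment. Aqp2, Aqp4, Aqp6, Avpr2 and Avpr1a were CCD transcripts, with group means of at most 0.344 TPM in PT-S1. Aqp7 was a PT-S1 transcript, with group means of 15.6 to 20.1 TPM there and 0.13 and 0.075 TPM in the sham and UNx CCD at 24 h. Aqp3 and Aqp11 were found in both segments, Aqp3 mainly in CCD and Aqp11 mainly in PT-S1, and Aqp1 was a PT-S1 transcript with a few TPM in CCD. In CCD the levels ran Aqp2, Aqp3, Avpr2, then Avpr1a, Aqp4 and Aqp6, then Aqp11, Aqp1 and Aqp7. Animals did not overlap between Aqp2, Aqp3 and Avpr2 within a group, while neighbours among Avpr1a, Aqp4 and Aqp6 mostly overlapped. In PT-S1 neighbours in the order among Aqp1, Aqp11 and Aqp3 overlapped, while Aqp1 (90.8 to 114.1 TPM) and Aqp3 (59.5 to 90.5 TPM) did not overlap in sham at 24 h, and all 3 lay above Aqp7.

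**Figure D1:**
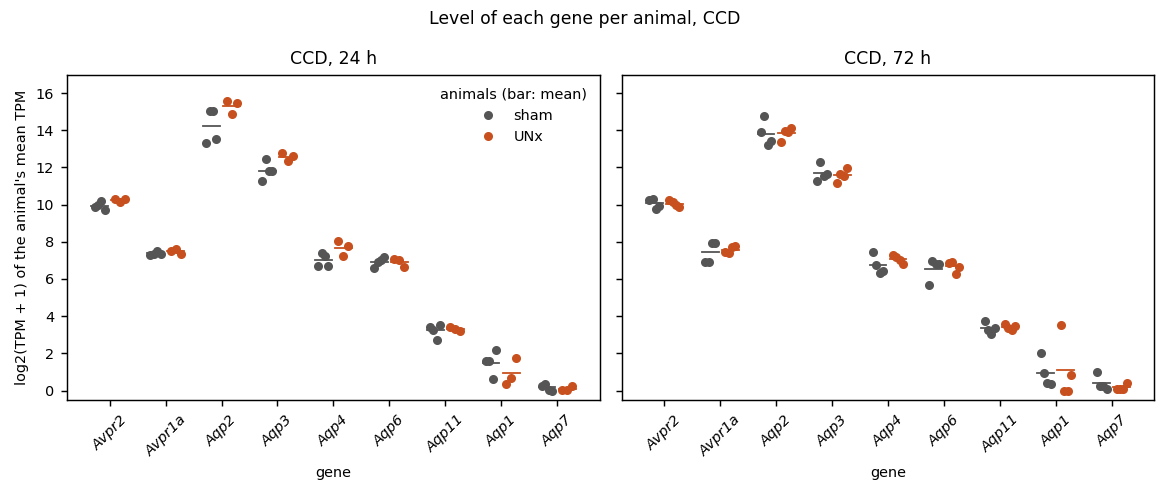
Level of each of the 9 genes in CCD at 24 h (left) and 72 h (right). Each point is an animal, plotted as log2(TPM + 1) of the mean TPM of its libraries, and each bar is the mean of the points of a group (grey sham, orange UNx). Aqp2 is the highest gene in every animal, and the spread of its sham animals at 24 h, from 10222 to 34046 TPM, spans the lowest UNx animal.

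**Figure D2:**
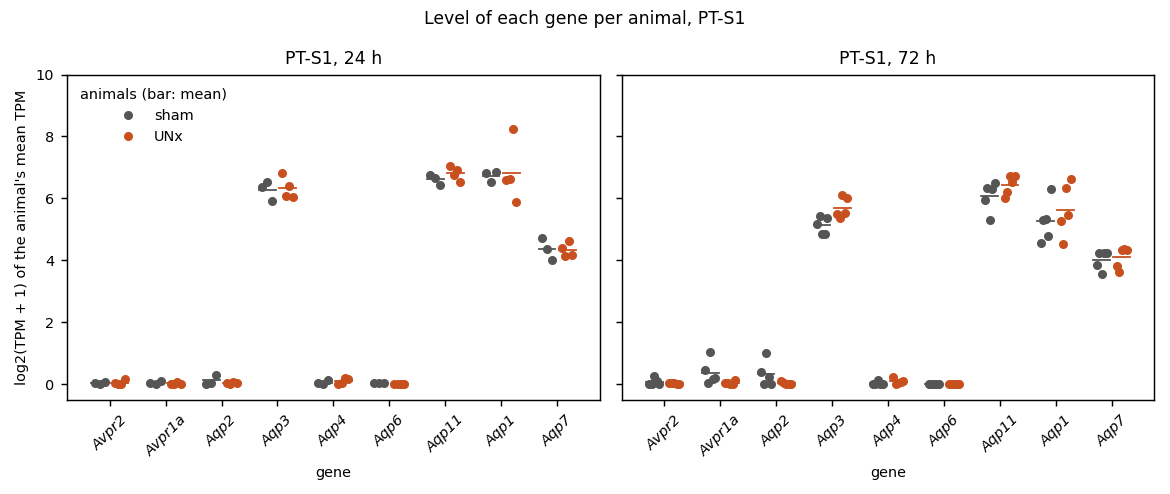
Level of each of the 9 genes in PT-S1 at 24 h (left) and 72 h (right), drawn as for CCD, with 1 point per animal on the log2(TPM + 1) scale. Only Aqp3, Aqp11, Aqp1 and Aqp7 stand clear of 0, and Aqp1 has the widest spread, with 302.7 TPM in UNx animal 3 at 24 h.

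The question put to the CCD at 24 h was whether these genes differ between UNx and sham animals. The principal cell genes Aqp2, Aqp3, Aqp4 and Avpr2 had higher means in UNx, by 0.31 to 1.06 on the log2(TPM + 1) scale, and Aqp6, Aqp11 and Avpr1a were within 0.12 of 0. In all, 6 of the 8 genes tested had a difference above 0, against 41.8% of all genes. With animals as replicates, limma called 0 of the 8 genes tested at an adjusted p under 0.05, against 0.987% of all genes tested in this comparison. At an unadjusted p under 0.05 it found 4 of the 8, those same principal cell genes, against 15.5% of all genes. Sham and UNx animals did not separate completely for any of the 8, against 15% of all genes that separated. The genes were chosen with earlier results of these data known, so these shares are a description.

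Avpr2 encodes the V2 receptor, which couples to adenylyl cyclase through the stimulatory G protein. At 24 h its level in CCD was 950.3, 1005, 1183 and 846 TPM in sham animals 1 to 4. In UNx animals 1 to 3 it was 1266, 1142 and 1272 TPM. UNx animals 1 and 3 lay above all sham animals, and UNx animal 2 lay below sham animal 3. Sham averaged 996 ± 141 TPM (SD, n = 4) and UNx 1227 ± 73.3 TPM (SD, n = 3), and the fitted difference was 0.31 on the log2 scale (SE 0.112, limma adjusted p = 0.238).

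Avpr1a encodes the V1a receptor, which signals through phospholipase C and calcium and in the collecting duct is best known from intercalated cells. At 24 h its level in CCD was 155.5, 164.1, 177.6 and 164.3 TPM in the sham animals. The UNx animals were at 181.3, 194.0 and 161.8 TPM, with animals 1 and 2 just above the sham animals and animal 3 among them. Sham averaged 165 ± 9.09 TPM (SD, n = 4) and UNx 179 ± 16.2 TPM (SD, n = 3), and the fitted difference was 0.12 (SE 0.0842, limma adjusted p = 0.544).

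Aqp2, the channel that vasopressin inserts into the apical membrane, had the highest level of the set and a wide spread between animals. At 24 h the sham animals 1 to 4 had 10222, 34046, 33734 and 12023 TPM. The UNx animals 1 to 3 had 48634, 30608 and 44731 TPM. The sham animals thus formed a lower pair, 1 and 4, and an upper pair, 2 and 3, and UNx animal 2 lay below the upper pair. The group means were 22506 ± 13166 TPM (SD, n = 4) and 41324 ± 9484 TPM (SD, n = 3), with a fitted difference of 1.06 (SE 0.444, limma adjusted p = 0.297).

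Repeated libraries of a sham animal placed Aqp2 at nearly the same level. The libraries of sham animal 1 had 10685 and 9759 TPM, those of sham animal 2 had 33606 and 34487 TPM, and those of sham animal 4 had 11824, 11864 and 12382 TPM. Those of UNx animal 1 were further apart, at 54564 and 42704 TPM. Sham animal 3 had only 1 library, so its level was not repeated. On the log2 scale the SD between libraries of an animal was 0.126 at 24 h, while the SD between animals within a group was 0.758. That spread between animals was larger than for 99.1% of the 8815 genes with a mean of at least 10 TPM. The high and low sham animals differed little in principal cell markers, which summed to between 14126 and 16109 TPM in sham and to between 13810 and 15402 TPM in UNx.

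Aqp3, the glycerol and water channel of the basolateral membrane, was at 2471, 5570, 3632 and 3526 TPM in the sham animals at 24 h. The UNx animals had 6968, 5181 and 6172 TPM. UNx animals 1 and 3 were above all sham animals, and UNx animal 2 was below sham animal 2, the animal that was also highest in Aqp2. The group means were 3800 ± 1291 TPM (SD, n = 4) and 6107 ± 895 TPM (SD, n = 3), with a fitted difference of 0.74 (SE 0.239, limma adjusted p = 0.185).

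Aqp4, the other basolateral water channel, was at 104.1, 166.3, 149.6 and 102.0 TPM in the sham animals at 24 h. The UNx animals had 265.2, 148.3 and 217.6 TPM. UNx animal 2 again lay within the sham range. The means were 131 ± 32.4 TPM (SD, n = 4) and 210 ± 58.8 TPM (SD, n = 3), with a fitted difference of 0.66 (SE 0.222, limma adjusted p = 0.205).

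Aqp6, an intracellular channel of acid-secreting intercalated cells, was level with sham in the same tubules. Its sham animals had 95.5, 119.4, 130.8 and 145.5 TPM. In UNx it was at 131.4, 129.6 and 98.1 TPM, inside the sham range, and the fitted difference was -0.03 (SE 0.154, limma adjusted p = 0.947). The intercalated cell markers also overlapped, with sums of 9174 to 10227 TPM in sham and 9473 to 11029 TPM in UNx.

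Aqp11, a channel of the endoplasmic reticulum, and Aqp1 were low in CCD at 24 h. Aqp11 ranged from 5.65 to 10.6 TPM in sham and from 8.28 to 9.64 TPM in UNx, with a fitted difference of 0.07 (SE 0.186, limma adjusted p = 0.891). Aqp1 ranged from 0.56 to 3.59 TPM in sham and from 0.295 to 2.38 TPM in UNx, with a fitted difference of -0.48 (SE 0.385, limma adjusted p = 0.599). A pseudocount of 1 understates the change of genes as low as Aqp1.

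Some marker sums of other tubule segments were higher in sham animals in CCD at 24 h. Thick ascending limb markers summed to 901, 4401, 118 and 251 TPM in the sham animals and to 108, 225 and 179 TPM in UNx, so sham animal 3 lay inside the UNx range. Without the 2 libraries that carried most of it, the differences were 1.04 for Aqp2, 0.64 for Aqp3, 0.63 for Aqp4 and 0.31 for Avpr2, close to those with all libraries, and limma called 0 of the 8 genes, against 1.02% of all genes. The 8 thin limb markers, 1 of which (Sptssb) was listed at 0 in sham, summed to between 310 and 604 TPM in sham and to between 139 and 229 TPM in UNx. Most of that sum was Cldn4, a claudin that collecting duct cells also express, with means of 366 and 154 TPM (difference -1.25, limma adjusted p = 0.0717). Its part in the differences of the principal cell genes was not tested.

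**Figure D3:**
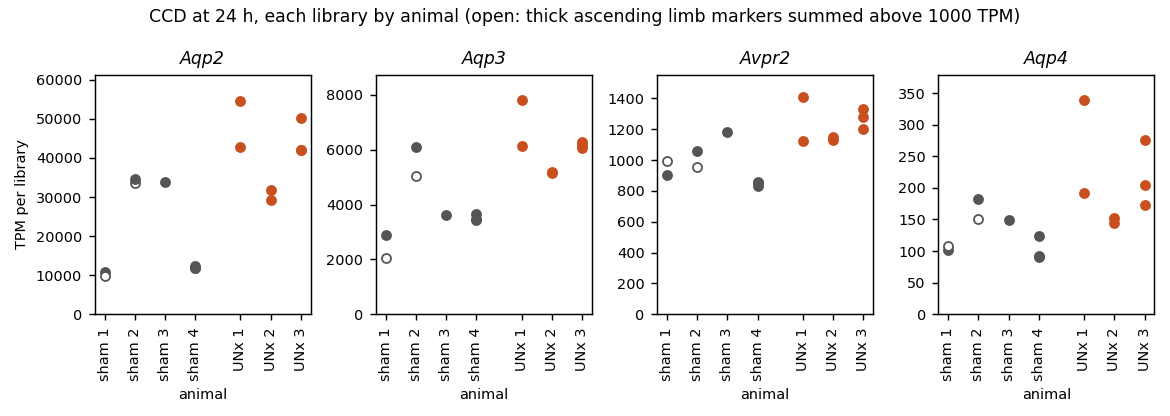
TPM of Aqp2, Aqp3, Avpr2 and Aqp4 in every CCD library at 24 h, grouped by animal (grey sham, orange UNx; open points mark the libraries with thick ascending limb markers above 1000 TPM in sum). Libraries of a sham animal lie close together for Aqp2, and sham animals 1 and 4 lie between 9759 and 12382 TPM and sham animals 2 and 3 between 33606 and 34487 TPM.

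The result in CCD at 24 h depended on how libraries of an animal were entered. When each library entered the fit and the animal was a random effect, limma called 3 of the 8 genes, against 3.52% of all genes under that setting. The differences were then 1.21 for Aqp2 (limma adjusted p = 0.0405), 0.74 for Aqp3 (limma adjusted p = 0.0355) and 0.36 for Avpr2 (limma adjusted p = 0.0309). Aqp4 had 0.71 (limma adjusted p = 0.0713). That fit assumes a single correlation between libraries of an animal for all genes, whereas the libraries of an animal were closer for Aqp2 than for Aqp4, whose SD between libraries of an animal was 0.306 against 0.375 between animals. Leaving out each animal in turn, the difference of Aqp2 ran from 0.75 to 1.33 and that of Aqp3 from 0.55 to 0.94, none of them past the threshold.

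At 72 h in CCD the differences of the 8 genes ran from -0.09 to 0.34, the largest being that of Aqp4. The limma test called 0 of the 8 genes, against 0.595% of all genes tested, and 0 of the 8 had an unadjusted p under 0.05, against 7.49% of all genes. Groups overlapped for all 8 genes, while 4.77% of all genes separated. The median difference of the 8 genes was 0.05, beside 0.01 over all genes tested, and at 24 h it had been 0.21 beside -0.04. Differences were above 0 for 6 of the 8 genes, against 52.2% of all genes. Without the low-correlation library of sham animal 1, limma called 0 of the 8, against 0.937% of all genes.

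Among the receptors at 72 h, Avpr2 had 1200, 1276, 878 and 973 TPM in the sham animals. Its UNx animals had 1233, 1129, 1010 and 920 TPM, within the sham range, and the fitted difference was 0.00 (SE 0.141, limma adjusted p = 0.999). Avpr1a split the sham animals, with 119.1 and 119.5 TPM in animals 1 and 2 and 246.4 and 248.0 TPM in animals 3 and 4. Its UNx animals lay in the gap at 172.6, 167.2, 207.9 and 216.4 TPM, and the fitted difference was 0.17 (SE 0.269, limma adjusted p = 0.951). The intercalated cell markers were also higher in sham animals 3 and 4, with sums of 9227, 8095, 11079 and 11971 TPM, and their part was not tested. Sham animal 1 includes the library of low correlation, with Avpr1a at 73.7 TPM there and at 164.4 TPM in its other library, and without it the difference was 0.03.

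Aqp2 at 72 h was at 15340, 27745, 9362 and 11081 TPM in the sham animals. The UNx animals had 10567, 15965, 15347 and 17766 TPM, all within the sham range, with a fitted difference of 0.01 (SE 0.314, limma adjusted p = 0.997). Sham animal 2 had the highest level and sham animal 3 the lowest, each with only 1 library. The spread between animals, 0.541 as an SD on the log2 scale, was again larger than that between libraries of an animal, 0.116, and larger than for 95.7% of the 8640 genes compared. The SD between libraries rested on sham animals 1 and 4 and UNx animals 1 and 4, since the others had 1 library each.

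The other CCD channels overlapped in the same way at 72 h. Aqp3 had 2465, 4962, 2952 and 3177 TPM in sham. In UNx it had 2279, 3270, 2997 and 4083 TPM, with a fitted difference of -0.09 (SE 0.230, limma adjusted p = 0.971). As with Aqp2, sham animal 2 was the highest. Aqp4 had 172.1, 106.9, 79.7 and 85.6 TPM in sham and 156.6, 144.0, 127.6 and 112.2 TPM in UNx, with a fitted difference of 0.34 (SE 0.222, limma adjusted p = 0.852). With each animal left out in turn, the difference of Aqp4 ran from 0.21 to 0.57, none past the threshold. In sham Aqp6 averaged 98.3 ± 32.3 TPM (SD, n = 4), with a UNx mean of 103 ± 19.2 TPM (SD, n = 4), and Aqp11 differed by 0.08 (SE 0.171, limma adjusted p = 0.966).

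Aqp1 in CCD at 72 h rested on a single library. The sham animals had 3.08, 0.92, 0.31 and 0.273 TPM, and the UNx animals 10.6, 0, 0 and 0.79 TPM. The libraries of UNx animal 1 had 0.56 and 20.7 TPM, and the fitted difference was -0.06 (SE 0.581, limma adjusted p = 0.995). In the library with 20.7 TPM, endothelial markers summed to 230 TPM and proximal S3 markers to 157 TPM, where other CCD libraries at 72 h reached 366 and 513 TPM. Its erythrocyte list, which includes Slc4a1 of intercalated cells, summed to 420 TPM, the highest of that table, next to 372 TPM in the other library of the animal. Red blood cells carry Aqp1, and the part of these markers was not tested.

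The change in difference between the times was tested directly. Relative to 24 h, the difference at 72 h was lower by 0.82 for Aqp3 (SE 0.364) and by 1.04 for Aqp2 (SE 0.593), and by 0.30 for Avpr2 (SE 0.193) and 0.31 for Aqp4 (SE 0.344). In limma the adjusted p was 0.968 for Aqp2, Aqp3 and Avpr2 and 0.981 for Aqp4, so that none of these passed. Over all 13253 genes limma called 0 (0%), and 4.96% had an unadjusted p under 0.05, among the members only Aqp3. The difference at 72 h is therefore not shown to differ from that at 24 h.

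**Figure D4:**
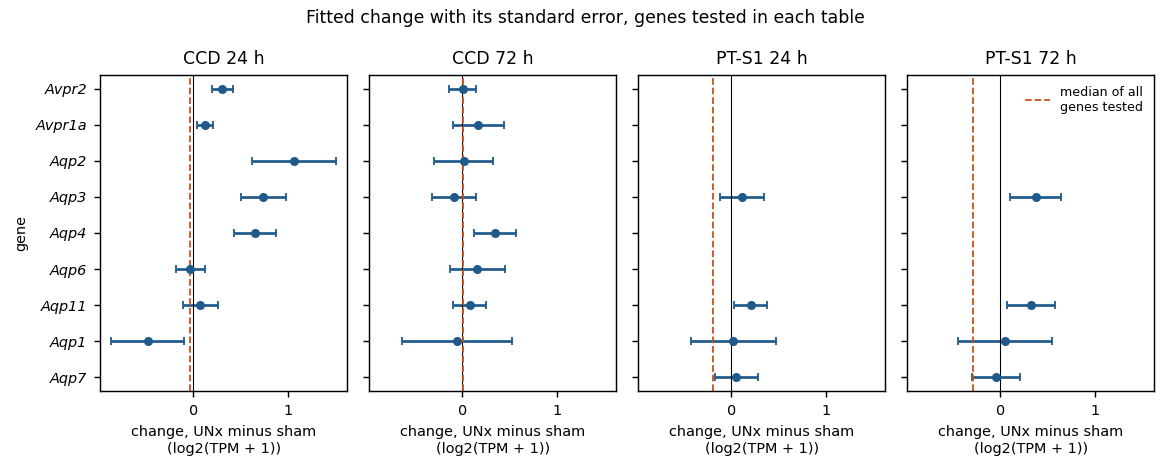
Fitted difference, UNx minus sham, on the log2(TPM + 1) scale for the genes tested in each table, with its standard error as the bar; the dashed line is the median of all genes tested. Aqp2, Aqp3, Aqp4 and Avpr2 lie to the right in CCD at 24 h, with Aqp2 at 1.06, and near 0 at 72 h apart from Aqp4 at 0.34, and in PT-S1 at 72 h the median of all genes lies at -0.29.

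In PT-S1 at 24 h the fitted differences of the 4 genes tested ran from 0.02 to 0.20, with SE from 0.175 to 0.451. The limma test called 0 of the 4, as it called 0 (0%) of all genes tested, and 0 of the 4 had an unadjusted p under 0.05, against 17.8% of all genes. Sham and UNx animals overlapped for all 4, while 21.3% of all genes separated. All 4 differences were above 0, as were 29.1% of all genes, whose median was -0.19. This median moved to -0.02 with median-ratio scaling, so differences in PT-S1 depend on the scale by about that amount. Without the 2 low-correlation libraries the differences of Aqp1, Aqp3 and Aqp7 turned to -0.18, -0.05 and -0.03, Aqp11 kept 0.13, and limma called 0 of the 4, against 0.00847% of all genes.

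Aqp1, the constitutive water channel of the proximal tubule, had 113.2, 90.8 and 114.1 TPM in the sham animals at 24 h. The UNx animals had 95.8, 97.8, 302.7 and 57.7 TPM. UNx animal 3 stood far above the rest in both libraries, at 218 and 387 TPM, while UNx animals 1 and 2 were within the sham range, and UNx animal 4 was below it. The fitted difference was 0.02 (SE 0.451, limma adjusted p = 0.984). In that animal the proximal S3 markers summed to 3146 TPM, the highest of the table, and those of S1 and S2 to 10346 TPM, the lowest. Its sums of endothelial (237 TPM), podocyte (15 TPM) and fibroblast and mural markers (7.76 TPM) were also the highest of the table. Erythrocyte markers summed to 0.35 TPM in its library with 218 TPM of Aqp1 and to 117 TPM in that with 387 TPM. The part of all these markers was not tested.

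Aqp7, a glycerol channel of the proximal brush border, had 25.4, 19.6 and 15.2 TPM in sham at 24 h. Its UNx animals had 20.1, 16.8, 23.8 and 17.1 TPM, inside the sham range, with a fitted difference of 0.05 (SE 0.224, limma adjusted p = 0.903). Aqp11, whose loss in mice leads to vacuoles in proximal tubule cells and cystic kidneys, had 108.0, 101.2 and 84.8 TPM in sham. Its UNx animals had 131.9, 106.2, 121.1 and 91.9 TPM, with a fitted difference of 0.20 (SE 0.175, limma adjusted p = 0.513). UNx animals 1 and 3 were above all sham animals for Aqp11, and the others were not.

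Aqp3 was measurable in PT-S1 at far lower levels than in CCD. The sham animals had 80.8, 90.5 and 59.5 TPM at 24 h. The UNx animals had 112.4, 67.4, 83.8 and 64.4 TPM, with a fitted difference of 0.11 (SE 0.228, limma adjusted p = 0.792). Among the genes that share the collecting duct pattern, the highest group mean in PT-S1 was 0.307 TPM for Aqp2 and 0.062 TPM for Avpr2. Aqp6 was listed at 0 in all 9 UNx libraries at 24 h and in all 24 libraries at 72 h. A single sham library at 72 h had Aqp2 at 2.01 and Avpr1a at 2.04 TPM, and in it markers of the distal convoluted and connecting tubule summed to 192 TPM and those of intercalated cells to 79.0 TPM.

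In PT-S1 at 72 h the limma test again called 0 of the 4 genes, as it called 0 (0%) of all genes, and 0 of the 4 had an unadjusted p under 0.05, against 20.5% of all genes. Groups overlapped for all 4, while 5.58% of all genes separated. Aqp3, Aqp11 and Aqp1 had differences above 0, as had 17% of all genes, whose median was -0.29.

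Aqp3 had 35.0, 42.3, 27.7, 27.6 and 40.5 TPM in sham animals 1 to 5 at 72 h. The UNx animals 1 to 5 had 44.2, 40.4, 68.1, 45.6 and 63.3 TPM. All UNx animals but animal 2 were above the highest sham animal. The means were 34.6 ± 6.92 TPM (SD, n = 5) and 52.3 ± 12.5 TPM (SD, n = 5), with a fitted difference of 0.37 (SE 0.265, limma adjusted p = 0.370).

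Aqp11 had 60.9, 80.1, 38.8, 78.2 and 89.95 TPM in sham at 72 h. In UNx it had 63.1, 73.4, 103.8, 91.8 and 105.2 TPM, and animals 3, 4 and 5 of these were above all sham animals. The fitted difference was 0.32 (SE 0.252, limma adjusted p = 0.406). Aqp7 had 13.4, 17.8, 10.8, 18.1 and 18.1 TPM in sham and 13.2, 11.3, 19.2, 19.8 and 19.1 TPM in UNx, with a fitted difference of -0.04 (SE 0.253, limma adjusted p = 0.924). For Aqp7 too, UNx animals 3, 4 and 5 were above all sham animals and UNx animals 1 and 2 were low.

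Those UNx animals 1 and 2 were the ones with a library of low correlation. In these libraries Aqp3 was at 7.99 and 16.2 TPM, Aqp7 at 4.77 and 4.05 TPM and Aqp11 at 39.3 and 49.6 TPM, and the S1 and S2 markers summed to 2684 and 2812 TPM. Without them, Aqp3 ranged from 45.6 to 80.4 TPM in UNx and from 27.6 to 42.3 TPM in sham, and Aqp7 from 18.5 to 21.6 and from 10.8 to 18.1 TPM. Every UNx animal was then above every sham animal for Aqp3 and Aqp7, which held for 1.34% of all genes under that setting. The differences became 0.88 for Aqp3 (limma adjusted p = 0.115), 0.35 for Aqp7 (limma adjusted p = 0.240), 0.53 for Aqp11 (limma adjusted p = 0.209) and 0.72 for Aqp1 (limma adjusted p = 0.275), none past the threshold, which 0.00837% of all genes passed. With median-ratio scaling of all libraries the difference of Aqp3 was 0.69 (limma adjusted p = 0.305) and that of Aqp7 turned to 0.26.

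**Figure D5:**
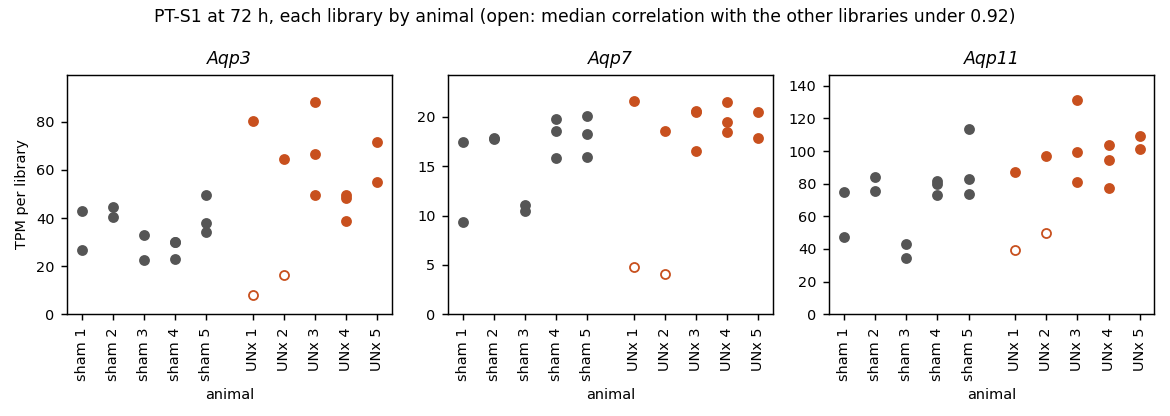
TPM of Aqp3, Aqp7 and Aqp11 in every PT-S1 library at 72 h, grouped by animal (grey sham, orange UNx; open points mark libraries with a median correlation under 0.92). The open points of UNx animals 1 and 2 lie below all or most other libraries, with Aqp3 at 7.99 and 16.2 TPM.

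Aqp1 at 72 h had 22.8, 38.6, 39.9, 26.6 and 78.8 TPM in the sham animals of PT-S1. Its UNx animals had 37.6, 21.9, 79.0, 42.8 and 98.5 TPM, a range that covered that of sham, with a fitted difference of 0.05 (SE 0.498, limma adjusted p = 0.956). Unlike Aqp2 in CCD, Aqp1 varied as much between libraries of an animal, with an SD of 1.17 on the log2 scale, as between animals, with an SD of 0.950. Without the low-correlation libraries these were 0.715 and 0.615. Over the 17 PT-S1 animals, deviations of Aqp1 from the group mean went with those of the S3 marker sum (Pearson r = 0.83, Spearman rho = 0.85, and r = 0.78 without the 2 animals farthest in the marker sum). They also went with the endothelial sum (r = 0.66, rho = 0.63, and 0.53 without the 2 farthest), while with the erythrocyte sum r was -0.12 (rho = -0.17). With the S1 and S2 markers r was 0.27 for Aqp1, 0.69 for Aqp3, 0.75 for Aqp7 and 0.80 for Aqp11, and without the 2 farthest animals 0.15, 0.58, 0.65 and 0.63. Without the low-correlation libraries r was 0.69 between Aqp1 and the S3 sum, 0.50 with the endothelial sum and 0.27 with the erythrocyte sum, and with the S1 and S2 sum it was -0.35 for Aqp1, 0.29 for Aqp3, 0.44 for Aqp7 and 0.63 for Aqp11. These correlations describe animals whose values share libraries and a common TPM total.

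For the members, no change over time or between segments passed. In PT-S1, the difference at 72 h minus that at 24 h was 0.26 for Aqp3, 0.12 for Aqp11, -0.09 for Aqp7 and 0.03 for Aqp1 (limma adjusted p = 0.998), with 0 (0%) of all 11455 genes called. There, 0 of the 4 had an unadjusted p under 0.05, against 3.33% of all genes. Without the low-correlation libraries the change with time was 0.93 for Aqp3 (SE 0.269, limma adjusted p = 0.0710), 0.91 for Aqp1 (SE 0.612, limma adjusted p = 0.389), 0.40 for Aqp11 (limma adjusted p = 0.378) and 0.38 for Aqp7 (limma adjusted p = 0.291). Limma then called 0 of the 4 members but 187 genes, 1.63% of all genes tested. Between segments at 24 h, the UNx difference in CCD minus that in PT-S1 was 0.63 for Aqp3 (SE 0.350, limma adjusted p = 0.396), -0.13 for Aqp11 (limma adjusted p = 0.831) and -0.50 for Aqp1 (limma adjusted p = 0.733), while limma called 0.137% of all genes, and 0 of the 3 had an unadjusted p under 0.05, against 15.4%. At 72 h it was -0.46 for Aqp3 (limma adjusted p = 0.547), -0.25 for Aqp11 and -0.11 for Aqp1, with 0 (0%) of all genes called and 0 of the 3 under an unadjusted p of 0.05, against 9.33%. Without the low-correlation libraries Aqp3 had 0.79 at 24 h (limma adjusted p = 0.192) and -0.94 at 72 h (limma adjusted p = 0.189), while Aqp1 had -0.29 and -0.64 and Aqp11 -0.05 and -0.47.

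Ratios within a library do not depend on its scaling. In CCD at 24 h the log2 ratio of Aqp2 to Avpr2, the water channel to the vasopressin receptor, was 4.29 ± 0.792 in sham and 5.04 ± 0.270 in UNx. The difference was 0.75 (two-sided exact permutation test, p = 0.229, adjusted p = 0.457 over 4 ratios). Aqp2 against the intercalated cell channel Aqp6 differed by 1.09 (exact permutation p = 0.171, adjusted p = 0.457) and Aqp2 against Aqp3 by 0.32 (exact permutation p = 0.457). Aqp3 against Aqp4, the basolateral pair, differed by 0.08 (exact permutation p = 0.686). With 4 against 3 animals this test cannot go below 0.0571. At 72 h, where the smallest possible p is 0.0286, the same ratios differed by 0.01, -0.15, 0.10 and -0.43, with adjusted p = 1 for all 4 in the exact permutation test. In PT-S1 the ratio of Aqp1 to Aqp7 differed by -0.03 at 24 h and 0.09 at 72 h, and that of Aqp1 to Aqp11 by -0.18 and -0.28 (exact permutation p from 0.579 to 0.914).

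Across the 15 CCD animals, deviations from the group mean showed which members varied together. Aqp2 went with Aqp3 (Pearson r = 0.77, Spearman rho = 0.85, and 0.63 without the 2 farthest animals) and with Avpr2 (0.59, 0.52 and 0.52 in the same order). Ranked by r to Aqp2 among 8469 genes with a mean of at least 10 TPM, Aqp3 was at 19 and Avpr2 at 137. Ranked by r to Avpr2, Aqp2 was at 731. Avpr2 went with Aqp4 (0.73, 0.73 and 0.65) and against Avpr1a (-0.68, -0.73 and -0.64). By r to Avpr2, Aqp4 ranked 245 and Avpr1a 8213 of the 8469 genes. Among the other pairs of principal cell genes, r was 0.58 for Aqp2 with Aqp4 (rho = 0.59). For Aqp3 it was 0.12 with Aqp4 and 0.08 with Avpr2 (rho = 0.325 and 0.16), so these genes did not all vary together. The marker sum of principal cells had r = -0.24 with Aqp2, -0.56 with Aqp3 and 0.39 with Avpr2 (rho = -0.26, -0.49 and 0.40, and r = -0.26, -0.69 and 0.49 without the 2 farthest). The intercalated cell sum had r = 0.73 with Avpr1a (rho = 0.57, and 0.49 without the 2 farthest animals). With Aqp6 it had r = 0.16 (rho = 0.37, and 0.44 without the 2 farthest). Without the low-correlation library these became 0.62 and -0.25. The thick ascending limb sum had r = 0.01 with Aqp2 (rho = -0.10, and -0.15 without the 2 farthest). In PT-S1, over 17 animals, Aqp7 went with Aqp11 (0.85, 0.75 and 0.89) and Aqp3 with Aqp11 (0.78, 0.85 and 0.72), and without the low-correlation libraries r was 0.83 and 0.51. Ranked by r to Aqp7 among 6330 genes, Aqp11 was only at 593. Ranked by r to Aqp11, Aqp7 was at 332 and Aqp3 at 655, so many other genes were closer. As above, the members share libraries and total, and no p is given.

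The genes whose deviations were most like those of a member were named by a fixed rule. Of 8469 genes with a mean of at least 10 TPM in both CCD tables, those nearest to Aqp2 were Morf4l2 (r = 0.96), Btc, which encodes the growth factor betacellulin (r = 0.92), and Eva1b (r = 0.90). Those nearest to Aqp3 were Fam129a (r = 0.94), Tceal3 (r = 0.91) and Cdk18 (r = 0.83), and those nearest to Avpr2 were Cdk2ap2 (r = 0.94), Tmed10 (r = 0.94) and Ypel5 (r = 0.93). Of 6330 genes in PT-S1, those nearest to Aqp1 were the urate transporter Slc22a12, Eci2 and Syvn1 (r = 0.94 for each). Aqp7 was nearest to Atp9a (r = 0.98), Faf2 (r = 0.96) and Wls (r = 0.95). Among the 3 genes nearest to Aqp11 were Ugt1a7c (r = 0.96) and Tmed4 (r = 0.95). These are the best matches among all genes compared, over 15 or 17 animals, and no p is given. They were chosen with all libraries, and without the low-correlation ones r of the genes named ran from 0.81 (Cdk18 and Tmed10) to 0.97 (Morf4l2) in CCD and from 0.70 (Syvn1) to 0.95 (Atp9a) in PT-S1.

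Genes around the receptor and the channel were followed in lists. In CCD at 24 h, of 33 tested genes of cAMP signalling (of 38) limma called 0 higher and 1 lower, against 0.987% of all genes called in either direction. Of the 33 differences 12 were above 0, against 41.8% of all genes, with a median of -0.10 beside -0.04. The gene called was Akap11, which encodes an anchoring protein of protein kinase A. Its UNx mean fell to 5.21 ± 1.49 TPM (SD, n = 3) from a sham mean of 10.7 ± 0.691 TPM (SD, n = 4), a difference of -0.95 (SE 0.168, limma adjusted p = 0.0394). The call was lost when any of 6 of the 7 animals was left out, with differences of -1.13 to -0.78 and adjusted p of 0.0335 to 0.144 in limma, and without the filter on low values (limma adjusted p = 0.117). At 72 h its difference was -0.09 (limma adjusted p = 0.966). Akap13, the next gene of that list, had -0.62 (limma adjusted p = 0.133).

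Of 39 tested genes of Aqp2 trafficking (of 40), limma called 0, and 16 differences were above 0, with a median of -0.03. The nearest to the threshold were Cul5, a ubiquitin ligase scaffold also known as a vasopressin-activated calcium-mobilizing receptor, with -0.60 (limma adjusted p = 0.0557), and the sorting receptor Sorl1, with -0.39 (limma adjusted p = 0.179). Of 28 tested candidate regulators of Aqp2 transcription (of 30), limma called 0, and 7 differences were above 0, with a median of -0.18. Tfcp2l1, a transcription factor of collecting duct cells, had means of 538 TPM in sham and 317 TPM in UNx. Its difference was -0.82 (limma adjusted p = 0.0727). Without the 2 libraries rich in thick ascending limb markers, a setting chosen after seeing the data, it was -1.02 (limma adjusted p = 0.0493). With each animal left out in turn it ran from -0.93 to -0.67 (limma adjusted p from 0.0703 to 0.253), none past the threshold. Ppargc1a, a coactivator of mitochondrial genes, had -0.48 (limma adjusted p = 0.0819).

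Of 18 tested genes for other receptors of collecting duct water transport (of 28), limma called 0, and 8 differences were above 0, with a median of -0.03. Ptger1, a prostaglandin E2 receptor, had means of 95.4 and 133 TPM, a difference of 0.49 (limma adjusted p = 0.107). Adra2a, an adrenergic receptor known to oppose vasopressin in the collecting duct, had 0.40 (limma adjusted p = 0.207). In these 3 lists, 9, 6 and 2 genes had an unadjusted p under 0.05, and in the cAMP list 7, where 15.5% of all genes did. The shares over all genes given for the cAMP list, 0.987% called and 41.8% above 0, apply to these 3 lists too. In the other tables limma called 0 genes of any of these lists. In CCD at 72 h the unadjusted counts were 2 of 33, 2 of 39, 5 of 27 and 2 of 18 for cAMP signalling, trafficking, transcription and receptors, against 7.49% of all genes. In PT-S1 at 24 h they were 9 of 28, 2 of 37, 7 of 20 and 1 of 8 in the same order, against 17.8%, and at 72 h 9 of 28, 4 of 37, 8 of 20 and 1 of 8, against 20.5%.

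The other aquaporin genes, Mip, Aqp5, Aqp8, Aqp9 and Aqp12, were low. None of the 5 passed the filter in CCD, and 1 passed it in PT-S1 at each time. Aqp5, next to Aqp2 in the genome, had means of 0.304 TPM in sham and 0.596 TPM in UNx at 24 h in CCD. Aqp8 had 0.407 and 1.87 TPM at 24 h in PT-S1, a difference of 0.77, and it was not called by limma. At 72 h in PT-S1 the gene tested had a difference of 0.22.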

How the data were processed

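The authors deposited TPM values per gene, 1 table for each segment and time; they used STAR and RSEM 1.3.3 with the GRCm39 build, per the submitters' processing notes. Of the 69 columns, 47 matched 1 sample by name and 22 matched a group and animal only. The members and gene lists were chosen with earlier results of these data known.

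Values were taken as log2(TPM + 1), averaged over the libraries of each animal, and compared between UNx and sham animals in each table with limma 3.58.1 in R 4.3.3 (empirical Bayes with a mean trend), over genes with a mean of at least 1 TPM. P-values are two-sided, adjusted by Benjamini-Hochberg over all genes tested, and called under 0.05. Fold values are on the log2(TPM + 1) scale. Differences of differences were contrasts in 1 limma fit over the animals of both tables. Ratios were tested with exact permutation tests in scipy 1.17.1 (Python 3.11.15), adjusted within a table. Nothing says that libraries of an animal were separate preparations of tissue, so animals and not libraries were counted.

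All 9 members are named. From each pathway list the 2 genes with the smallest p in CCD at 24 h and any gene called are named; the genes named for likeness are the 3 with the highest Pearson r, predicted genes and pseudogenes left out, and 1 match of Aqp11 is not reported here. The 5 low-correlation libraries and alternatives in pseudocount, filter, scaling, random effect, animal block and each animal left out were examined; leaving out the libraries rich in thick ascending limb markers, and the correlations and spreads without the low-correlation libraries, were chosen after seeing the data. The code was tested on simulated data. Protein sequences were not used here. Sequences are from RefSeq, GRCm38.p6.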

Additional observations from a re-analysis of the deposited data

Results flagged for a closer look

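Of 54 groups of 4 or 5 animals examined for a value that stands apart, 3 held one, and chance flags about 1 in 20 groups. In PT-S1 at 24 h, Aqp1 in UNx animal 3 was at 302.7 TPM, separated from the next animal by 0.836 of the range of its group, where 0.829 is the critical value. In the same animal the log2 ratio of Aqp1 to Aqp11 was 1.26, with a gap of 0.854 of the range. In CCD at 72 h, Aqp1 in UNx animal 1 was at 10.6 TPM, with a gap of 0.926 of the range, and its libraries were at 0.56 and 20.7 TPM.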

How the results depend on the processing

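TPM carries no depth, so precision could be judged only from the spread between animals. Correlations of the deviations of same-numbered sham and UNx animals ran from -0.37 to 0.33. With so few animals they do not settle whether the numbers pair the animals. The fit with the animal number as a replicate block called 81 genes in PT-S1 at 24 h, 0 in CCD at 24 h and 3 in CCD at 72 h, against 0, 136 and 82 without it, and 0 members.

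Of 355 alternative values of members' differences, 297 kept their direction and call, 55 changed sign over 14 of 24 results and 3 passed the threshold; of 83 differences of differences 7 changed sign, and of 130 ratios 26. The causes were not tested. Members called in CCD at 24 h became 3 under the random-effect fit, and 0 with each animal left out, as in the other tables. Genes called with the random effect were 485 in CCD at 24 h, 100 in PT-S1 at 24 h and 10 at 72 h. Without the filter they were 2 in PT-S1 at 24 h, 1 in CCD at 24 h and 7 in CCD at 72 h; median-ratio scaling gave 1 in PT-S1 at 24 h. Without the low-correlation libraries they were 129 in CCD at 72 h and 1 in each PT-S1 table. With each animal left out they ran from 0 to 8 in PT-S1 at 24 h, 0 to 0 in PT-S1 at 72 h, 7 to 78 in CCD at 24 h and 8 to 73 in CCD at 72 h. Genes whose difference changed with time in PT-S1 became 1 without the filter and 187 without the low-correlation libraries. Genes that differed between segments at 24 h, 15 in all, became 43 without the filter, 25 with scaling, 179 without the low-correlation libraries and 6 without those rich in thick ascending limb markers. At 72 h they became 1 without the filter and 9 without the low-correlation libraries.

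Signs turned as follows. With the random effect, Aqp1 had -0.11 in PT-S1 at 24 h; in CCD it had 0.17 at 72 h, while Aqp11 had -0.0064 at 24 h. With TPM averaged before the log2 step, Aqp7 had -0.026 in PT-S1 at 24 h and 0.070 at 72 h. In CCD at 72 h that setting gave Aqp1 0.17 and Avpr2 -0.0041. With scaling, Aqp7 had 0.26 in PT-S1 at 72 h, Aqp6 0.0025 in CCD at 24 h and Avpr2 -0.00046 in CCD at 72 h, and with the block Aqp6 had 0.054 in CCD at 24 h. Without the low-correlation libraries, Aqp1, Aqp3 and Aqp7 had -0.18, -0.052 and -0.031 in PT-S1 at 24 h, Aqp7 had 0.35 in PT-S1 at 72 h, and Aqp1, Aqp2, Avpr2 and Aqp6 had 0.083, -0.00042, -0.069 and -0.014 in CCD at 72 h. Changes of the difference with time turned for Aqp1 in PT-S1 with a pseudocount of 0.1 (-0.014), and for Aqp7 there with scaling (0.014) and without the low-correlation libraries (0.38). In CCD they turned for Avpr1a without those libraries (-0.092), and for Aqp11 with scaling (-0.034), without those libraries (-0.011) and without the libraries rich in thick ascending limb markers (-0.075). Ratios taken from mean TPM turned for Aqp1 to Aqp7 in PT-S1 at 24 h (0.13) and Aqp1 to Aqp11 at 72 h (0.018), and without the low-correlation libraries for Aqp1 to Aqp11 in PT-S1 at 72 h (0.19) and Aqp2 to Aqp6 in CCD at 72 h (0.014).

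Leaving out each animal in turn gave ranges that crossed 0. In PT-S1 at 24 h they were -0.47 to 0.33 for Aqp1, -0.18 to 0.24 for Aqp7 and -0.090 to 0.25 for Aqp3, and at 72 h -0.29 to 0.38 for Aqp1 and -0.16 to 0.12 for Aqp7. In CCD at 24 h they were -0.087 to 0.17 for Aqp11 and -0.15 to 0.10 for Aqp6. In CCD at 72 h they were -0.24 to 0.28 for Aqp1, -0.033 to 0.36 for Avpr1a, -0.20 to 0.33 for Aqp2, -0.22 to 0.11 for Aqp3, -0.089 to 0.091 for Avpr2, -0.024 to 0.21 for Aqp11 and -0.17 to 0.31 for Aqp6. For the ratios they were, in PT-S1, -0.43 to 0.23 (Aqp1 to Aqp7) and -0.64 to 0.034 (Aqp1 to Aqp11) at 24 h and -0.16 to 0.31 (Aqp1 to Aqp7) at 72 h. In CCD they were -0.023 to 0.18 (Aqp3 to Aqp4) at 24 h, and -0.15 to 0.24 (Aqp2 to Avpr2), -0.060 to 0.27 (Aqp2 to Aqp3) and -0.45 to 0.21 (Aqp2 to Aqp6) at 72 h.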
